A study of Mus musculus with 6 samples.

Results

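The nuclear-encoded genes of the mitochondrial respiratory chain were compared between secondary follicles of young and of old mice. The rule that chose them named 45 genes of complexes I to IV, cytochrome c and heme A synthesis. Of these, 43 had a probe set annotated with their symbol alone, out of 18193 genes measured in this way. Ndufs6 shared its only probe set with Ndufs6b, Cox7b had no probe set of its own in the annotation used, and neither was analysed here. By complex, 21 measured genes belonged to complex I, 4 to complex II, 6 to complex III and 9 to complex IV, with Cycs (cytochrome c) as the mobile carrier and Cox10 and Cox15 as enzymes that make the heme A of complex IV. Cox10, Cox15 and Cycs are thus not subunits in the strict sense, and Ndufa4, named for complex I, was counted with complex IV, to which its protein is now assigned. The list holds no complex V gene, and ATP synthase was read from a separate list.

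The secondary follicles had been freed with needles from ovaries of specific pathogen-free female C57BL/6J mice, aged 9 weeks (young, 3 samples) or 32 weeks (old, 3 samples), with no other treatment given in the labels. Total RNA of each sample was hybridized to an Affymetrix 3' expression array, whose values are given below as log2 of the normalized intensity. A secondary follicle holds an oocyte and its granulosa cells, and their RNA was measured together with that of any other cells in the sample. Markers of theca, stroma and other cells are given below. The samples are labelled as biological replicates, yet how many mice went into each was not stated in the labels or methods read here, and the p-values therefore describe the spread among these 6 samples.

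The respiratory chain passes electrons from NADH (complex I) and succinate (complex II) through ubiquinone to complex III, then through cytochrome c to complex IV, where oxygen is reduced to water. Complexes I, III and IV pump protons across the inner mitochondrial membrane, and ATP synthase (complex V) uses the gradient. The subunits of complex II are all nuclear-encoded, whereas the others are built from nuclear and mitochondrial gene products, and the oocyte is known for its large stock of mitochondria.

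The promoters of such genes are known for binding sites of NRF1, GABP and YY1, and 3 promoters with matches are shown, that of Sdhd, which had the lowest change of the list, that of Ndufb7, which had the highest, and that of Ndufa8, a gene called higher whose call was less firm. Each is the sequence of the 100 bases before the RefSeq gene start (GRCm38.p6), written in the direction of the gene, at chr9:50603850-50603949 on the minus strand for Sdhd, chr8:83566658-83566757 on the plus strand for Ndufb7 and chr2:36049339-36049438 on the minus strand for Ndufa8. Capitals mark a match to the NRF1 motif (GCGCA and GCGC separated by 1 base) or the GABP motif (CCGGAAG) on either strand.
Sdhd: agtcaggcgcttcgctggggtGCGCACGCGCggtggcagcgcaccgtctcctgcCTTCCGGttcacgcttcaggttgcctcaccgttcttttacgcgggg
Ndufb7: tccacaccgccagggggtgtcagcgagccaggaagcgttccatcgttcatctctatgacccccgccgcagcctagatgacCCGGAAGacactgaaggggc
Ndufa8: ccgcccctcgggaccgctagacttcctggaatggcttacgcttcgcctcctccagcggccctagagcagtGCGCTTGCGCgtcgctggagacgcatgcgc
The Sdhd window held a match to NRF1 whose first base was at position −79 relative to the gene start and a match to GABP at −46. Ndufb7 held a GABP match at −20, and Ndufa8 an NRF1 match at −30. A match is a description of the letters, not a measured binding site.

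The respiratory chain genes moved in both directions with age, each by less than 2-fold. In the old samples 10 of 43 genes were higher (23.3%) and 4 were lower (9.3%), and 29 did not pass the test (limma, two-sided, Benjamini-Hochberg adjusted p of at most 0.05 over all genes). Over all genes tested, 10.1% were higher and 13.3% were lower, 23.4% together. Of the 10 higher genes, 9 belonged to complex I, and the largest increase was that of Ndufb7 (1.41-fold). The lower genes were Sdhd (0.631-fold), Uqcrfs1 (0.677-fold), Cox15 (0.809-fold) and Ndufa9 (0.863-fold). In bulk follicles, fewer cells of a type and less RNA per cell cannot be told apart.

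As a group the genes hardly shifted. The median log2 fold change of old over young was 0.03 over the 43 genes and −0.0042 over all genes, with 25 genes above 0 and 18 below. With limma, 0 genes of the list reached a fold of 2 at an adjusted p of at most 0.05, against 0.764% of all genes, and the count was also 0 at an unadjusted p under 0.05 and with SAM. In 18 genes all old samples lay above all young ones and in 11 all lay below, where 18.9% and 23.7% of all genes did so.

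The probe sets of these genes were bright and varied little between replicates. The mean log2 intensity was at least 9 for 39 of the 43 genes, and the median SD within groups was 0.05 over the 43, against 0.09 over all genes. Smaller differences passed the test among bright genes. When the 2637 genes with a mean of at least 9 were fitted alone, an analysis chosen after the data were seen, 20.5% of them were higher and 32.8% lower (53.4% together), and of the 39 listed genes among them 17 were higher (43.6%) and 7 lower (17.9%). The direction of the background depended on the scaling. With the values quantile-normalized again, 13.2% of all genes were higher and 9.67% lower, against 14 and 5 of the listed genes, and with cyclic loess 12.9% and 9.76%, against 13 and 4.

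**Figure D1:**
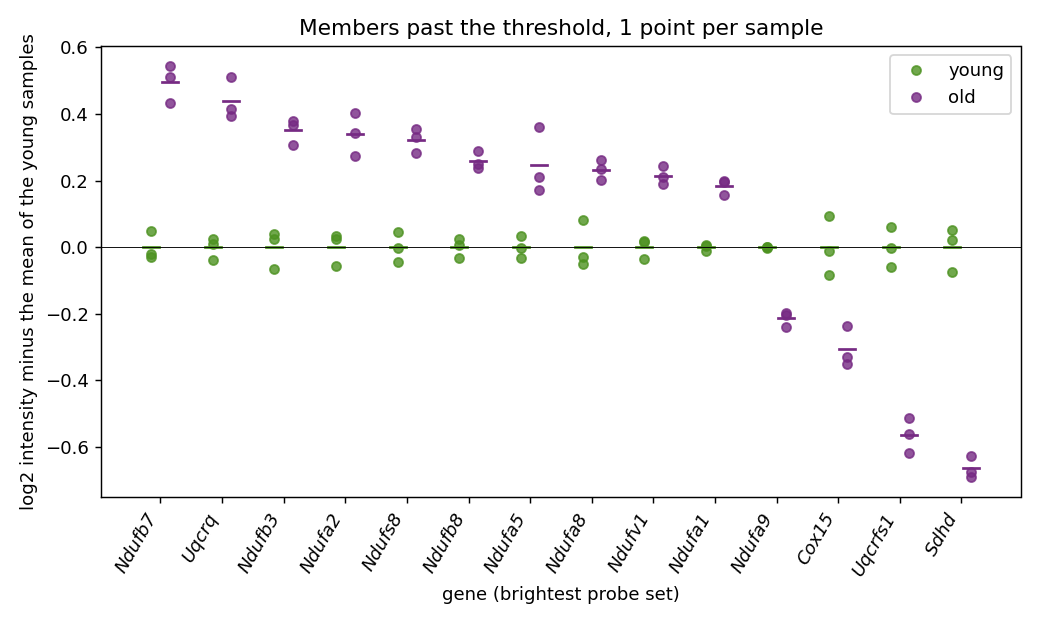
Log2 intensity of each called respiratory chain gene (adjusted p of at most 0.05, limma) in each of the 6 samples, minus the mean of the 3 young samples. Genes are ordered by log2 fold change, genes that did not pass are not drawn, and each point is 1 sample. Complex I genes make up 9 of the 10 genes that rose, and the old samples of Sdhd and Uqcrfs1 lie farthest below the young ones.

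Several features of the samples moved with age beside these results. Of 10 oocyte markers 9 fell, with a median log2 fold change of −0.34, and all 10 were lower in every old sample than in every young one (mean over the markers 10.55 to 10.59 in young and 10.16 to 10.21 in old samples). Granulosa markers were level in the mean (10.94 to 11.00 and 10.94 to 11.00), with 1 of 10 higher and 1 lower. Smooth muscle and stroma markers rose in 5 of 6 (7.17 to 7.23 against 7.69 to 7.81), theca markers in 2 of 4 (7.25 to 7.36 against 8.06 to 8.11) and macrophage markers in 4 of 8 with 1 lower (4.88 to 4.95 against 5.23 to 5.33). Among 6 endothelial markers 1 rose and 1 fell (4.98 to 5.01 against 4.94 to 5.05), and of 2 erythroid markers 1 rose (4.08 to 4.30 against 4.59 to 4.77). No marker was listed at 0. Over all genes, 10.1% were higher and 13.3% lower, and all old samples lay above all young ones in 18.9% and below in 23.7%. The array's control probe sets at the 3' end of Gapdh exceeded those at the 5' end by 0.47 ± 0.014 in young and 1.51 ± 0.0048 in old samples on the log2 scale (SD, n = 3), and those of beta-actin by 1.48 ± 0.033 and 2.53 ± 0.050 (exact permutation p = 0.1 for each, the smallest that 3 samples against 3 allow). The part of cell makeup and of this RNA measure in the results on the respiratory chain was not tested.

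Complex I held most of the genes that rose. Of its 21 measured genes 9 were higher (42.9%), 1 was lower (4.76%) and 11 did not pass, with a median log2 fold change of 0.18. The shares over all genes were 10.1% and 13.3%. These counts depended on the setting. SAM gave 5 higher and 0 lower (9.57% and 11.2% of all genes), and a filter on dim genes 12 and 4 (14.6% and 31.2%). The mean over the 21 genes was 10.38, 10.32 and 10.33 in young samples 1, 2 and 3 and 10.47, 10.48 and 10.44 in the old ones, so that every old sample lay above every young one. In 12 of the 21 genes the old samples were all above the young, and in 5 all below, where 18.9% and 23.7% of all genes did so. By position, 5 of 10 subunits of the membrane arm were higher with 0 lower and a median of 0.21 (limma, 7 higher and 2 lower where p was under 0.05 before adjustment, and 3 and 0 by SAM). In the matrix arm 4 of 11 subunits were higher with 1 lower and a median of 0.05 (2 and 0 by SAM).

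The subunits of the membrane arm that rose were all accessory subunits, which surround the proton-pumping core encoded by mitochondrial DNA. Ndufb7, a subunit on the side of the intermembrane space, had log2 intensities of 10.09, 10.02 and 10.01 in young samples 1, 2 and 3 and of 10.55, 10.58 and 10.47 in old samples 1, 2 and 3. Its groups were far apart, with a log2 fold change of 0.50 (95% interval 0.37 to 0.63, limma adjusted p = 0.00135). It ranked 531 from the top among the 18193 genes. Ndufb3 stood at 10.04, 9.94 and 10.03 in young and at 10.37, 10.38 and 10.31 in old samples, a rise of 0.35 ± 0.055 (SE, adjusted p = 0.00484). For Ndufb8 the values were 10.25, 10.26 and 10.21 in young and 10.49, 10.53 and 10.48 in old samples (0.26 ± 0.049, SE, adjusted p = 0.0102). On a second, dim probe set of Ndufb8 (mean 5.16, against 10.37) the change was 0.22, and with it in place of the brightest the call was lost (adjusted p = 0.0734). The groups of both genes did not overlap, and the lowest old sample lay at least as far above the highest young one as the young samples spread.

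Smaller rises were seen in the remaining genes of this arm. Ndufa8, a cysteine-rich subunit facing the intermembrane space whose promoter is shown above, had values of 10.27, 10.14 and 10.16 in young and 10.39, 10.45 and 10.43 in old samples (0.23 ± 0.057, SE, adjusted p = 0.0252). The X-linked Ndufa1, a small subunit needed for assembly of the complex, stood at 11.27, 11.25 and 11.27 and at 11.46, 11.42 and 11.46 (0.18 ± 0.048, SE, adjusted p = 0.0303). All old samples of both genes were above all young ones, yet the calls were not firm. Leaving out a single sample ended that of Ndufa8 in 5 of 6 cases, all but young 1 (adjusted p 0.0524 to 0.093), and that of Ndufa1 in 5 of 6 cases, all but old 2 (adjusted p 0.0538 to 0.106).

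The membrane arm genes that did not pass went both ways. Ndufb10 had a log2 fold change of 0.23 (adjusted p = 0.0584) and Ndufb6 of 0.16 (adjusted p = 0.12), both with every old sample above the young ones. Ndufb5 was at −0.16 (adjusted p = 0.0505) and Ndufa10, which sits on the matrix side of this arm, at −0.13 (adjusted p = 0.107), both with every old sample below. Ndufb9 was at −0.02 (adjusted p = 0.872), with overlapping groups.

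In the matrix arm, which takes up electrons from NADH and hands them along iron-sulfur clusters, 2 of the 6 core subunits rose. Ndufs8, which carries a pair of iron-sulfur clusters, had values of 10.98, 10.90 and 10.94 in young and 11.27, 11.29 and 11.22 in old samples. Its rise of 0.32 ± 0.053 (SE, adjusted p = 0.00552) exceeded the spread in either group. Ndufv1, which binds the flavin that oxidizes NADH, stood at 10.30, 10.25 and 10.30 and at 10.47, 10.52 and 10.49 (0.21 ± 0.050, SE, adjusted p = 0.0207), without overlap. Its call was lost without young 2, young 3 or old 3 (adjusted p 0.0546 to 0.0828). Both genes also depended on the probe set. When probe sets whose ID marks them as binding several transcripts, of the same gene or of others, were left out, the log2 fold change was 0.09 for Ndufs8 (adjusted p = 0.321), on a probe set with a mean of 9.29, and −0.0074 for Ndufv1 (adjusted p = 0.935), on one with a mean of 9.50. Among those left out, a probe set of Ndufv1 with a mean of 9.97 had a change of 0.21 (adjusted p = 0.0398). For Ndufs8, one with a mean of 11.06 had a change of 0.25 (adjusted p = 0.0258). Others of Ndufs8, with means of 10.63 and 9.20, had changes of 0.13 (adjusted p = 0.155 and 0.171).

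The other core subunits did not pass the test. Ndufs7, which carries the last iron-sulfur cluster before ubiquinone, was at 0.26 (adjusted p = 0.0517) with every old sample above the young ones. Ndufv2 was at −0.14 (adjusted p = 0.101) and Ndufs3 at −0.09 (adjusted p = 0.286), both with every old sample below. Ndufs1, the largest core subunit, was at −0.05 (adjusted p = 0.626).

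Among the accessory subunits of the matrix arm, Ndufa2 and Ndufa5 rose and Ndufa9 fell. Ndufa2 had values of 10.34, 10.43 and 10.43 in young and 10.75, 10.80 and 10.68 in old samples (0.34 ± 0.058, SE, adjusted p = 0.00652). Ndufa5 stood at 9.76, 9.79 and 9.73 and at 10.12, 9.97 and 9.93 (0.25 ± 0.065, SE, adjusted p = 0.0311). Old 1 was the highest sample of Ndufa5, and its call was lost in 5 of 6 cases, all but without old 3 (adjusted p 0.0518 to 0.0921). Ndufa9, which lies where the arms meet and binds NADPH, had 10.47 in each young sample and 10.23, 10.27 and 10.27 in the old ones. It was the only complex I gene of the list called lower in this fit, by 0.21 on the log2 scale (SE 0.048, adjusted p = 0.0184), and the call was lost without young 2, young 3, old 1 or old 3 (adjusted p 0.057 to 0.0678). Ndufa6 was at 0.05 (adjusted p = 0.517). Ndufs4, a late-assembling subunit whose loss in mice causes a Leigh-like disease, had values of 10.02, 9.91 and 9.91 and of 9.97, 9.97 and 9.94 in young and old samples (0.01, adjusted p = 0.893), with overlapping groups.

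**Figure D2:**
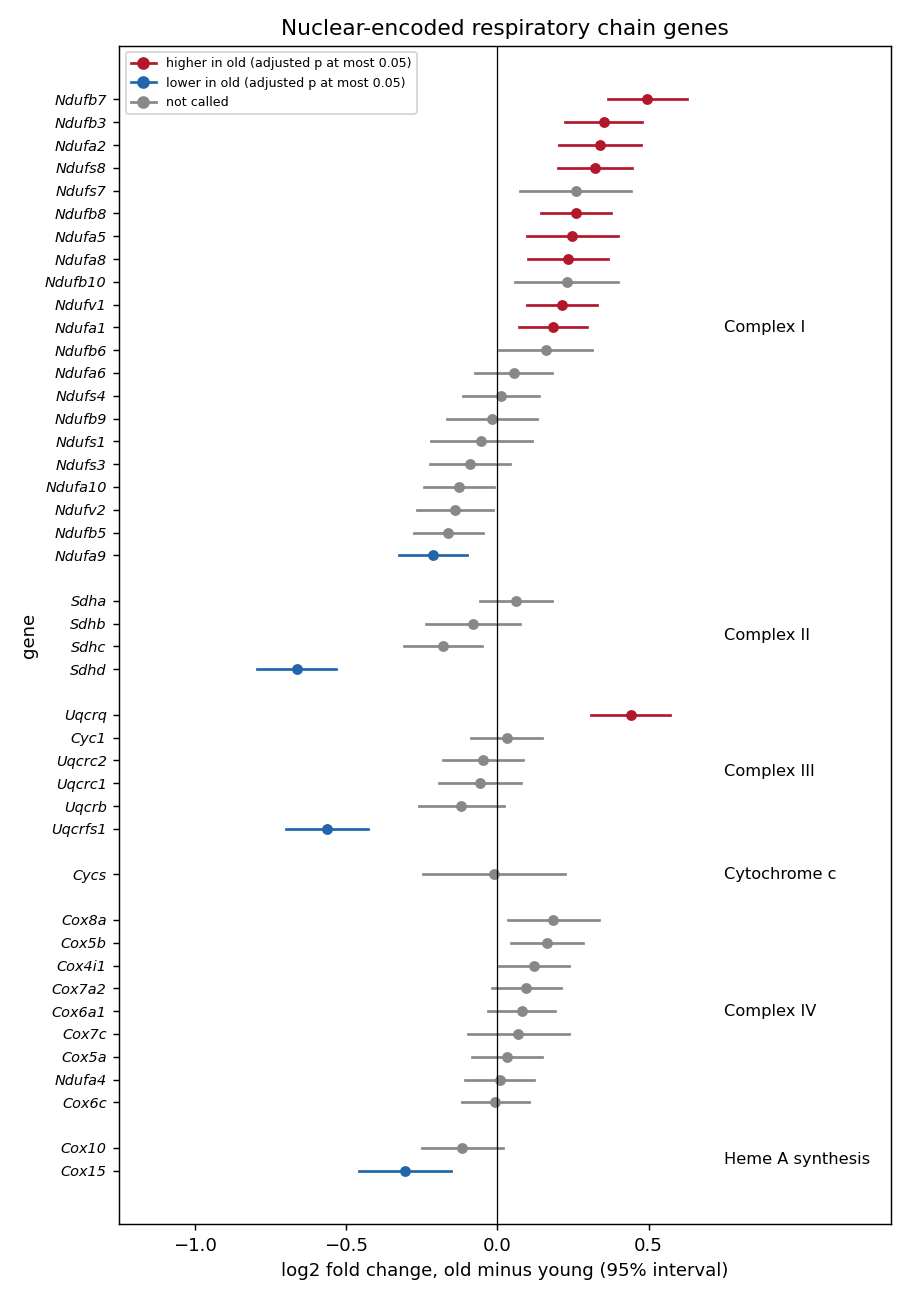
Log2 fold change of old over young for the 43 measured genes, by complex, with the 95% interval of the limma fit (3 samples per group). Ndufb7 lies at 0.50 and Sdhd at −0.66, and the intervals of the complex IV genes lie close to 0.

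In complex II, the succinate dehydrogenase that also works in the citric acid cycle, Sdhd stood out. Of the 4 genes 1 fell and 0 rose (limma, 2 lower and 0 higher where p was under 0.05 before adjustment, and 1 and 0 by SAM), and the median log2 fold change was −0.13. Over all genes, 13.3% were lower and 10.1% higher. The count depended on the setting. Sdha and Sdhd were lower with probe sets averaged, and Sdhc and Sdhd with dim genes filtered out, a trended and robust prior or array weights. Of the genes tested in those settings, 13.7% to 31.2% were lower. The mean over the 4 genes was 9.89, 9.85 and 9.80 in young samples and 9.60, 9.68 and 9.61 in old ones. That separation rested on Sdhd, since the mean over the other 3 genes overlapped, with 9.87, 9.82 and 9.79 in young and 9.73, 9.81 and 9.73 in old samples.

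Sdhd encodes 1 of the 2 membrane anchors that hold the heme and help to bind ubiquinone. Its values were 9.92, 9.95 and 9.83 in young and 9.21, 9.27 and 9.23 in old samples. The old samples lay close together and far below the young ones, 9.24 ± 0.032 against 9.90 ± 0.065 (SD, n = 3). The change of −0.66 (95% interval −0.79 to −0.53, adjusted p = 0.000421) was the lowest of the list and ranked 18046 from the top among 18193 genes. When the probe sets of each gene were averaged it was −0.26 (adjusted p = 0.0288), since a dim second probe set of Sdhd did not follow. Sdhc, the other anchor, stood at 8.54, 8.56 and 8.44 and at 8.32, 8.36 and 8.32, with every old sample below the young ones (−0.18, adjusted p = 0.0537). The catalytic subunits moved less. Sdha, the flavoprotein that oxidizes succinate, had values of 10.45, 10.42 and 10.40 and of 10.45, 10.53 and 10.49 (0.06, 95% interval −0.06 to 0.18, adjusted p = 0.415), with overlap. Sdhb, the iron-sulfur subunit, was at −0.08 (adjusted p = 0.429).

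Complex III held 1 gene that rose and 1 that fell among 6 (16.7% each), with a median of −0.05. Over all genes, 10.1% were higher and 13.3% lower. Uqcrfs1, the Rieske iron-sulfur protein that takes electrons from ubiquinol, had values of 9.68, 9.62 and 9.56 in young and 9.01, 9.06 and 9.11 in old samples. The groups were 9.62 ± 0.061 and 9.06 ± 0.052 (SD, n = 3), and the fall of 0.56 on the log2 scale (95% interval of the change −0.70 to −0.43, adjusted p = 0.000941) was several times the spread. Uqcrq, a small subunit next to cytochrome b, went up from 10.76, 10.83 and 10.81 to 11.22, 11.31 and 11.19 (0.44, 95% interval 0.31 to 0.57, adjusted p = 0.00215). These genes of 1 complex thus moved apart, at ranks 17920 and 679 from the top. The remaining 4 lay near 0, Cyc1 (cytochrome c1) at 0.03 (adjusted p = 0.694), the structural core subunits Uqcrc1 at −0.06 (adjusted p = 0.522) and Uqcrc2 at −0.05 (adjusted p = 0.586), and Uqcrb at −0.12 (adjusted p = 0.199, every old sample below the young ones).

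Cycs, which carries electrons from complex III to complex IV and also takes part in apoptosis, showed no difference that passed the test. It had values of 10.96, 10.93 and 11.00 in young and 11.09, 10.71 and 11.04 in old samples. On this probe set, the brightest of the gene, the old samples were spread widely, with old 2 the lowest and old 1 the highest of all 6. The 95% interval of the change ran from −0.25 to 0.22 (adjusted p = 0.942), and without old 2 the log2 fold change was 0.11. The spread was not seen on dimmer probe sets of Cycs with means of 10.14 and 9.21. Their values in old samples 1, 2 and 3 were 10.20, 10.16 and 10.16, and 9.26, 9.20 and 9.20, with changes of 0.06 and 0.02.

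In complex IV, 0 of 9 measured nuclear subunits passed the test (limma, 3 higher and 0 lower where p was under 0.05 before adjustment, and 0 by SAM), while 8 of 9 were above 0. The mean over the 9 genes was 11.25, 11.21 and 11.21 in young and 11.29, 11.33 and 11.30 in old samples, a narrow but complete separation, and the median log2 fold change was 0.08. Cox8a, a small membrane subunit, had the highest change of the 9. Its values were 10.05, 9.88 and 9.88 in young and 10.16, 10.12 and 10.08 in old samples (0.18, 95% interval 0.03 to 0.33, adjusted p = 0.0774). The old samples were all above the young ones, and Cox8a passed in 7 of the 16 alternatives run, among them both other normalizations, array weights and the fit without young 1, the highest young sample. The 0 of 9 depended on the setting, with 1 gene higher after cyclic loess and without young 1, 2 after quantile normalization and with array weights, 3 with dim genes filtered out, 5 with a trended and robust prior, and 4 of 8 when bright genes were fitted alone. Of the genes tested in those settings, 8.09% to 20.5% were higher. Cox5b was at 0.16 (adjusted p = 0.0549), Cox4i1 at 0.12 (adjusted p = 0.12), Cox7a2 at 0.10 (adjusted p = 0.197) and Cox6a1 at 0.08 (adjusted p = 0.268), also with every old sample above. Of the 6 probe sets of Cox5b, 2 dimmer ones were called higher and 0 lower. They had means of 12.08 and 10.60 and changes of 0.20 (adjusted p = 0.0364) and 0.24 (adjusted p = 0.026). Groups overlapped in Cox7c (0.07, adjusted p = 0.523), Cox5a (0.03, adjusted p = 0.664) and Ndufa4 (0.01, adjusted p = 0.924). Cox6c, at the low end, had values of 12.06, 12.05 and 12.08 and of 12.05, 12.07 and 12.04 (−0.01, adjusted p = 0.928).

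Heme A, the cofactor of complex IV, is made by Cox10, which adds a farnesyl tail to heme, and Cox15, which oxidizes the product. Both were lower in every old sample than in every young one. Cox15 had values of 7.05, 6.87 and 6.94 in young and 6.60, 6.62 and 6.72 in old samples, and fell by 0.31 on the log2 scale (SE 0.065, adjusted p = 0.0158). Cox10 stood at 8.27, 8.14 and 8.20 and at 8.10, 8.04 and 8.12 (−0.12, adjusted p = 0.188). A dimmer probe set of Cox10 (mean 7.19) was called lower (−0.26, adjusted p = 0.0206), and one with a mean of 2.30 was not (−0.11, adjusted p = 0.457). The call of Cox15 was lost without old 1 (adjusted p = 0.0513) and with all its probe sets averaged (−0.09, adjusted p = 0.209).

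Several probe sets represented most of these genes. The 43 genes had 95 probe sets in all, 28 genes having several, and 21 probe sets were higher and 7 lower in old samples, against 8.95% and 13.8% of all single-symbol probe sets. Among the 52 dimmer ones, 11 were higher and 3 lower, and their median log2 fold change was 0.12, against 0.05 for the brightest probe sets of the same 28 genes. With limma, 0 genes had probe sets called in opposite directions. Adjusted p-values of probe sets were taken over all single-symbol probe sets.

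Some changes were measured by more than 1 probe set. Ndufb7 rose by 0.49 in its other probe set (adjusted p = 0.00282), Uqcrq by 0.48 in a dim one (adjusted p = 0.00452) and Ndufa5 by 0.37 in an equally bright one (adjusted p = 0.00508). Uqcrfs1 had 1 probe set alone. The change differed by over 0.5 between probe sets of 3 genes. For Sdhd the dimmer probe set had a mean of 5.05 and a change of 0.15 (adjusted p = 0.386), against −0.66 for the brightest. For Sdha a dim probe set (mean 5.35) fell by 0.75 on the log2 scale (adjusted p = 0.00279) while the brightest was at 0.06. In Ndufs4, probe sets with means of 7.24 and 4.22 rose by 0.24 (adjusted p = 0.0415) and 0.70 (adjusted p = 0.023), against 0.01 for the brightest.

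Differences were also found between probe sets of like brightness, in 3 genes chosen after their values were seen. A second probe set of Ndufb9 (mean 10.65) rose by 0.29 (adjusted p = 0.0105) and one of Ndufv2 (mean 10.54) by 0.24 (adjusted p = 0.0216), where the brightest were at −0.02 and −0.14. For Uqcrc2 a probe set with a mean of 10.23 changed by −0.37 (adjusted p = 0.00459), where the brightest was at −0.05. Probe sets of a gene bind at different places in its transcripts, and the positions were not analysed here. The part of the age difference in the 3' over 5' values of Gapdh and beta-actin in these differences was not tested.

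**Figure D3:**
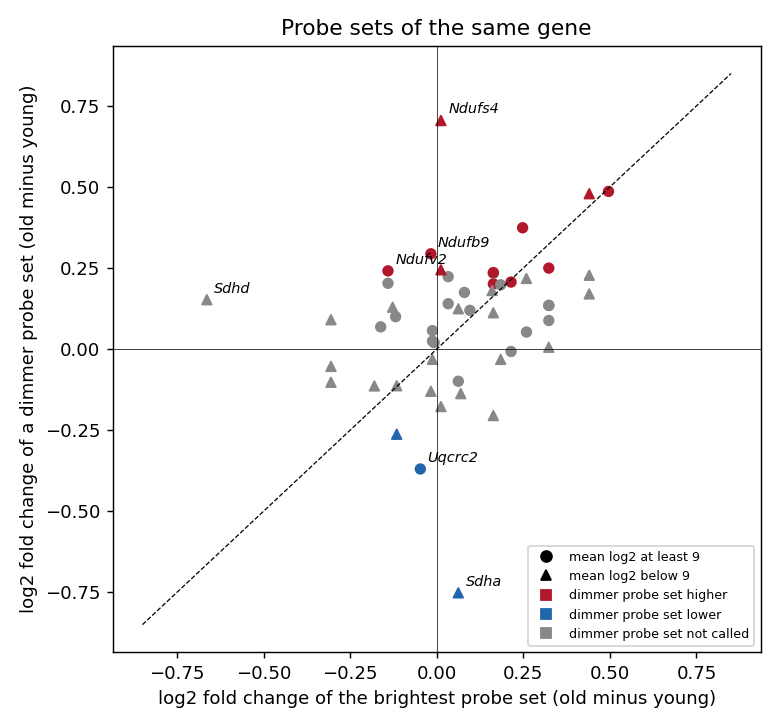
Log2 fold change of each of the 52 dimmer probe sets against that of the brightest probe set of the same gene (28 genes). Points on the diagonal changed alike, and the dim probe sets of Ndufs4, Sdha and Sdhd lie farthest from it.

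The other subunits of the same complexes, which are not in the list of 45, were read in the same fit. Of 12 further complex I subunits 5 rose and 0 fell (limma, with 0 lower at an unadjusted p under 0.05 and by SAM), and their median of 0.17 was close to the 0.18 of the listed ones. Ndufv3, a small subunit of the matrix arm, rose by 0.47 (adjusted p = 0.00234), Ndufc1 by 0.37 (adjusted p = 0.0053) and Ndufa3 by 0.29 (adjusted p = 0.00672). Counting listed and further subunits, 14 of 33 complex I genes were higher (42.4%) and 1 was lower (3.03%), against 10.1% and 13.3% of all genes. In complex III, Uqcr11 rose by 0.34 (adjusted p = 0.00686) and Uqcr10 by 0.18 (adjusted p = 0.0491), and Uqcrh was at −0.01 (adjusted p = 0.933). In complex IV, Cox6b1 rose by 0.24 (adjusted p = 0.0202), and Cox7a2l was at 0.08 (adjusted p = 0.305).

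ATP synthase, complex V, showed small increases. Of its 17 genes 4 rose and 0 fell (limma, 5 higher and 0 lower where p was under 0.05 before adjustment, and 2 and 0 by SAM), 13 were above 0, and the median was 0.05. The 4 that rose were 23.5% of the genes, against 10.1% higher and 13.3% lower over all genes. Atp5k, a membrane subunit, rose by 0.28 (adjusted p = 0.00982). Atp5d and Atp5e, subunits of the central stalk, rose by 0.25 (adjusted p = 0.0207) and 0.24 (adjusted p = 0.023). Tissue-restricted isoforms were called in 2 of 9, Ndufa4l2 (0.35, adjusted p = 0.0286) and Cox6a2 (0.28, adjusted p = 0.0314), with a median of 0.03 over the 9. Of the 13 proteins encoded by mitochondrial DNA only ND5, a proton-pumping core subunit of complex I, was analysed here. Its values were 12.46, 12.45 and 12.37 in young and 11.96, 11.84 and 11.99 in old samples. It was lower in every old sample than in every young one, by 0.50 on the log2 scale (SE 0.061, adjusted p = 0.00188).

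Genes that assemble the complexes fell more often than they rose, 11 of 41 against 2, with a median of −0.03 (26.8% and 4.88%, against the 13.3% and 10.1% of all genes). For complex I, 4 of 13 fell, Acad9 by 0.40 (adjusted p = 0.0155), Nubpl by 0.28 (adjusted p = 0.0165), Ndufaf5 by 0.28 (adjusted p = 0.017) and Ndufaf6. For complex II, Sdhaf2, which attaches the flavin to Sdha, fell by 0.40 (adjusted p = 0.00286) and Sdhaf3 by 0.35 (adjusted p = 0.0142), 2 of 4 in all. For complex III, 0 of 6 passed (limma, 3 higher and 0 lower where p was under 0.05 before adjustment, and 0 by SAM), with Uqcc3 at 0.17 (adjusted p = 0.0759), Ttc19 at 0.18 (adjusted p = 0.0919) and Bcs1l, which inserts the Rieske protein, at 0.16 (adjusted p = 0.114).

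Complex IV factors went both ways, 2 of 15 higher and 3 lower. Sco2, which delivers copper, fell by 0.42 (adjusted p = 0.00305) and Lrpprc, which stabilizes mitochondrial mRNA, by 0.37 (adjusted p = 0.00488), whereas Pet100 rose by 0.37 (adjusted p = 0.00404). For complex V, Tmem70 fell by 0.42 (adjusted p = 0.00801) and Atpaf1 by 0.23 (adjusted p = 0.0169), and Atpaf2 was at 0.12 (adjusted p = 0.322).

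Of 10 genes for the expression of mitochondrial DNA 3 fell and 0 rose (limma, with the same counts at an unadjusted p under 0.05, and 2 and 0 by SAM). For this and the next lists, the shares over all genes were 13.3% lower and 10.1% higher. Tfb2m, the mitochondrial transcription factor that opens the promoter, fell by 0.63 (adjusted p = 0.00171), Mterf3 by 0.39 (adjusted p = 0.00467) and Mterf4 by 0.25 (adjusted p = 0.0272). Among 8 nuclear regulators of respiratory genes, Yy1 fell by 0.26 (adjusted p = 0.0145) and Gabpb1 by 0.29 (adjusted p = 0.029), and Gabpa was at −0.23 (adjusted p = 0.0885). Nrf1 was at −0.04 (adjusted p = 0.612) and Ppargc1a, the coactivator of mitochondrial biogenesis, at 0.12 (adjusted p = 0.401). Of 14 genes of pyruvate dehydrogenase and of the citric acid cycle, which feeds complexes I and II, 4 fell (28.6%) and 2 rose (14.3%). The lowest p-values were those of Dld (−0.50, adjusted p = 0.00122), Suclg1 (−0.37, adjusted p = 0.00269) and Idh3a (−0.29, adjusted p = 0.00847). All differences of this paragraph were under 2-fold.

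**Figure D4:**
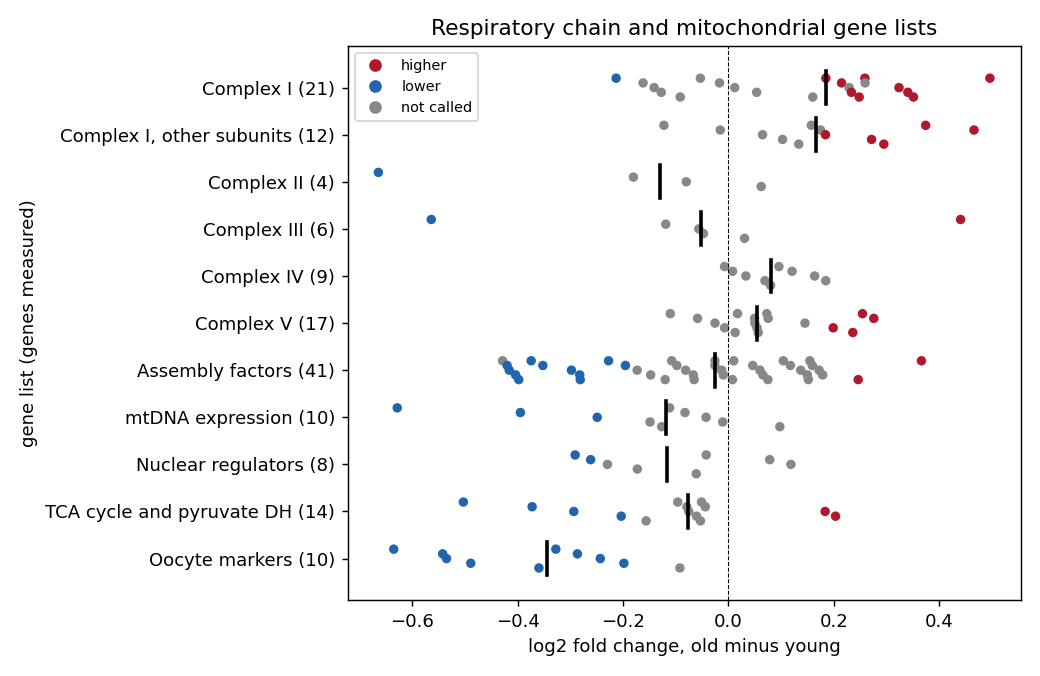
Log2 fold change of old over young for each gene of the respiratory chain complexes and of the related lists; each point is 1 gene and the bar is the median of its list. The medians of complex I (0.18) and its further subunits (0.17) lie above 0. Those of complex II (−0.13) and of the assembly factors of all complexes together (−0.03) lie below.

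Matches to the motifs in the promoters were counted in windows from 250 bases before to 50 after the RefSeq gene start, which 35 of the 45 listed genes had. NRF1 (GCGCA and GCGC separated by 1 base) matched in 8 of the 35 (22.9%), against 5.19% of 27025 genes with a window. GABP (CCGGAAG) matched in 10 (28.6%, against 9.93%) and YY1 (AAGATGGC) in 6 (17.1%, against 3.19%), both strands being read for each motif. The NRF1 motif was present in 2 of 8 genes that rose, 1 of 4 that fell and 4 of 21 that did not pass, the GABP motif in 2, 2 and 6, and the YY1 motif in 1, 1 and 3. Sdhd, the gene with the lowest change, held NRF1 and GABP matches within the sequence shown above, and Ndufb7, with the highest, a GABP match. Uqcrfs1 held no match to these letters in its window, and Uqcrq had no window.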

How the data were processed

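Follicle RNA of 3 young (9 weeks) and 3 old (32 weeks) samples was hybridized to 6 Affymetrix 3' arrays. The authors processed the arrays with RMA, of unstated version, and deposited linear intensity values for 45101 probe sets. Since the deposited intensity was linear, log2 values of it were taken, with no pseudocount.

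Probe sets with 1 gene symbol (34945) were named with the array's annotation, and symbols were updated with RefSeq names (GRCm38.p6), found for 18032 of 18194 gene IDs. Those with several symbols (932) or none (9211, with 64 controls) were left out. The probe set with the highest mean stood for its gene. Old and young samples were compared with lmFit and eBayes of limma 3.58.1 (R 4.3.3), two-sided, p-values were adjusted by Benjamini-Hochberg over the 18193 genes, and a gene was called at an adjusted p of at most 0.05. The steps were tested on simulated data.

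The members and lists were chosen with earlier results of these data known. Values per sample are given for called genes, the extremes of complexes I to IV, Cycs, Cox10, Cox15 and genes with discordant probe sets, and in other lists the genes with the lowest p-values are named. Alternatives were SAM (20 label assignments), other probe set rules, quantile and cyclic loess normalization, a filter on dim genes, other priors and array weights, a fold of 1.5, a block for the replicate number, and each sample left out. Arrays have no read depth, and precision is limited by their number.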

Additional observations from a re-analysis of the deposited data

How the results depend on the processing

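Among the 14 called genes only Ndufv1 turned its sign in any alternative, while the counts moved with the setting. Against 10 higher and 4 lower genes, SAM gave 6 higher, leaving out probe sets marked as binding several transcripts, of the same gene or of others, 5 higher (of 33 genes that had another), a filter on dim genes 16 higher and 8 lower, a trended and robust prior 18 and 9, array weights 7 lower, and the fit of genes with a mean of at least 9, added after the data were seen, 17 and 7. Of all genes, 9.57% were higher and 11.2% lower with SAM, and 8.9% and 13.4% with probe sets for several transcripts left out. The dim filter gave 14.6% and 31.2%, the trended prior 12.4% and 17.7%, and array weights 13.4% and 16.7%. In these last settings 18.6%, 20.9% and 16.3% of the listed genes were lower, in that order. Leaving out each sample in turn gave 6 to 11 higher and 2 to 4 lower, against 6.25% to 8.09% and 8.12% to 11.8% of all genes. A fold of 1.5 was reached by 1 gene, Sdhd, against 0 at a fold of 2. The labels state no pairing by replicate number. Correlations of same-numbered deviations were 0.05, −0.0003 and 0.04, and those of different numbers ran from −0.09 to 0.06, which shows no pairing but cannot exclude one. The replicate block gave 7 higher and 3 lower with a median of 0.03. Ndufb3, Ndufb7, Sdhd, Uqcrfs1 and Uqcrq were called in every alternative run, as was Ndufa2 wherever it had a probe set, and Ndufb8 and Ndufs8 also kept the call with each sample left out. Ndufa1, Ndufa5, Ndufa8, Ndufa9 and Ndufv1 lost the call with SAM and with the replicate block. Signs turned for genes near 0. Averaging probe sets gave 0.0062 for Cox6c, 0.0094 for Cycs and −0.17 for Sdha (adjusted p = 0.0393). With probe sets for several transcripts left out, Cycs was at 0.025, Sdha at −0.10 and Ndufv1 at −0.0074. Cox6c was at 0.042 after quantile normalization, and Cycs at 0.011 after cyclic loess and 0.039 with array weights. With each sample left out in turn, Cox6c ran from −0.0154 to 0.0008, Cycs from −0.0843 to 0.11 and Ndufs4 from −0.0062 to 0.048. The causes were not tested. With 3 samples a group and adjustment over all genes, the smallest change that passed in the list was 0.18.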
